A study of Mus musculus with 19 samples.

Results

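Meis1, Meis2, Nr2f1 and Nr2f2, 4 transcription factor genes of the developing forebrain, were followed through the open chromatin of 19 mouse libraries. A summit, the highest point of a called peak of open DNA, was given to 1 of these genes when the nearest end of any protein-coding gene, within 100 kb, was its own. In this way the 4 genes, of 21887 protein-coding genes, held 1522 of 1547369 deposited summits. Lists of equal length were made from the 29112 best-scoring summits of each library, called matched summits here; the 4 genes held 524 of 553128 of them. Matched summits at most 200 bp apart were chained into regions, and 46 of 44878 regions with summits of at least 2 libraries belonged to the 4 genes.

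Meis1 and Meis2 encode homeodomain proteins of the TALE class, which bind DNA together with Pbx partners. Meis2 was found as a gene induced by retinoic acid, and it is known as a regulator of ventral forebrain progenitors and of the olfactory bulb lineage. Nr2f1 (COUP-TFI) and Nr2f2 (COUP-TFII) encode orphan nuclear receptors that can oppose retinoic acid receptors at shared DNA elements. Nr2f1 is known for setting the identity of cortical areas, and Nr2f2 for its part in the caudal ganglionic eminence and its interneurons.

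Open DNA was profiled by ATAC-seq, in which a transposase inserts sequencing adapters into accessible chromatin, in Prom1-positive forebrain cells taken with magnetic beads at embryonic day 14. Prom1 lies in the apical membrane of neural progenitor cells. The series concerns retinoic acid from the meninges, which need Foxc1, and its action on neurogenesis. There were 6 mutants on a retinoic acid diet, 5 controls on that diet, 4 mutants without it and 4 controls without it. Mutants carried Foxc1 hith, a hypomorphic allele, over a LacZ insertion in Foxc1 (Foxc1 hith/LacZ), and controls were labelled Foxc1 WT. The library titled mutant 1 has a Foxc1 WT genotype label, so its title and its label disagree, and it was kept with its title. Nothing in the labels tells whether the libraries within a group are from separate embryos, so the p-values reflect the spread between these libraries and nothing wider. They name no batch, date or sex, and the dose of the diet is not given in the sources used here.

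The sequences at the start sites are shown because only 1 of the 4 held summits. Each is 300 bases of RefSeq on GRCm38.p6, from 250 before the start site to 50 after it, written 5′ to 3′ on the minus strand, which all 4 genes use. The Meis1 window is chr11:19018920-19019219, the Meis2 window chr2:116064570-116064869, the Nr2f1 window chr13:78198824-78199123 and the Nr2f2 window chr7:70366697-70366996. Capitals mark the 103 bases over which the summits of the libraries were spread.

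Meis1: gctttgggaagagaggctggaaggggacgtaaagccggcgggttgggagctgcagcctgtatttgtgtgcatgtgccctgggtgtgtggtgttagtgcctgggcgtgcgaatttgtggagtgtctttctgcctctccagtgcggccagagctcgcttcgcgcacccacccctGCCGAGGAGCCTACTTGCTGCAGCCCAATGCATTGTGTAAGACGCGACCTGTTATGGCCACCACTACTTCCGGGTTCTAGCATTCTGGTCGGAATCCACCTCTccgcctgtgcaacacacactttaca
Meis2: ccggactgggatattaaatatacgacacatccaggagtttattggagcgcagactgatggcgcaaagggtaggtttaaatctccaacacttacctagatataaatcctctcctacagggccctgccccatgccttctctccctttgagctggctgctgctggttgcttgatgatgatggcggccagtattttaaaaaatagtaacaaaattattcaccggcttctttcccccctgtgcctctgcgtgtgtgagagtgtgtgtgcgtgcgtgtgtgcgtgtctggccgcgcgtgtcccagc
Nr2f1: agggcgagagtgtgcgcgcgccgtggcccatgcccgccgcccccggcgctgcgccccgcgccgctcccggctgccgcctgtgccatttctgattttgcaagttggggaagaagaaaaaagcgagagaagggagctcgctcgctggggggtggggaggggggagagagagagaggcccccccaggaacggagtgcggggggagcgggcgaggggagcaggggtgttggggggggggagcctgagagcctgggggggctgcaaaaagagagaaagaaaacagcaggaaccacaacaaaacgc
Nr2f2: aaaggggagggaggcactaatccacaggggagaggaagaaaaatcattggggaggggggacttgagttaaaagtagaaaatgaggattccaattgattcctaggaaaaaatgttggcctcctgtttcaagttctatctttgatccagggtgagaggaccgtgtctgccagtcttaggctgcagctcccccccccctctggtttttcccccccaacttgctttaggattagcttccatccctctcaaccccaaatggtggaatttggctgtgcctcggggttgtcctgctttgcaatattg

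In the Meis1 window 15 of 19 libraries had a summit, and in each of them it was a matched one. By group these were 6 of 6 mutants on the diet, 4 of 5 controls on the diet, 2 of 4 mutants and 3 of 4 controls. The windows of Meis2, Nr2f1 and Nr2f2 held no deposited summit in any library. The other RefSeq window of Nr2f1 (chr13:78196400-78196699) held none either. The Meis2 window lies inside the gene body, whose 5′ end is at chr2:116067537. A region 320 bp from that end (chr2:116067125-116067307) had matched summits in 16 libraries, so the empty window does not stand for the whole 5′ part of Meis2. Of 21263 such windows of protein-coding genes, 54.2% held a deposited summit in at least 1 library and 28.4% held a matched summit in at least 15. The Nr2f1 window was rich in G and C (68.0%, 23 CpG), the Meis1 and Meis2 windows were nearer to the median window (58.3% with 15 CpG and 51.0% with 13 CpG, against medians of 56.3% and 13), and the Nr2f2 window had 2 CpG at 49.7%. Both strands were searched for 6 short motifs. None of the 4 windows held the MEIS core TGACAG, which 18.7% of all windows hold, the Pbx and Meis composite TGATTGAC (0.785%) or the nuclear receptor element AGGTCA (14.7%). CCAAT occurred 1 time each in the Meis1 and Meis2 windows and 2 times in that of Nr2f2 (38.2% of windows), GGGCGG 1 time in that of Nr2f1 (46.2%) and TATAAA 1 time in that of Meis2 (12.6%). No searched motif contains another, and a match is a description of the sequence only.

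The length of the deposited lists ran from 29112 to 87470 summits in mutants on the diet, 59106 to 91114 in controls on the diet, 49804 to 115007 in mutants and 77593 to 122591 in controls. Read depth is unknown. The median score of the matched summits was 88.79, 104.7, 34.86 and 10.67 in mutants 1 to 4, against 53.14, 54.21, 90.99 and 110.9 in controls. It ran from 7.325 to 45.54 in mutants on the diet and from 28.09 to 76.67 in controls on the diet. The matched list of mutant 4 on the diet was its whole list, down to a score of 1.305. The part of these score levels in the results was not tested. Mutants 3 and 4 and mutant 6 on the diet stood apart, with mean correlations of 0.733, 0.748 and 0.769 to the ranks of the other libraries, against 0.833 to 0.904 for all others. Of 12 radial glia and neural progenitor markers, 9 had, in every library, a matched summit at most 1 kb from an end of the gene. So did 4 of 12 intermediate progenitor and projection neuron markers, and 8003 of all 21887 protein-coding genes (36.6%). None of 12 ganglionic eminence markers did so. The matched summits at that list summed to 19 to 30 in mutants on the diet, 22 to 26 in controls on the diet, 18 to 28 in mutants and 20 to 26 in controls. Markers of meningeal fibroblasts, endothelium, microglia and erythroid cells held matched summits at some genes. Col3a1 and Lum, Tek, Tie1 and Cldn5, Tyrobp, Fcer1g and Itgam, and Gata1, Hbb-bs, Hba-a1 and Alas2 had no matched summit in any library. A matched summit within 1 kb of a gene end was present in every library at 1 of 10 endothelial markers. The same held for 1 of 10 microglia and macrophage markers. In such bulk samples a change in the mix of cells and a change within cells cannot be told apart.

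**Figure D1:**
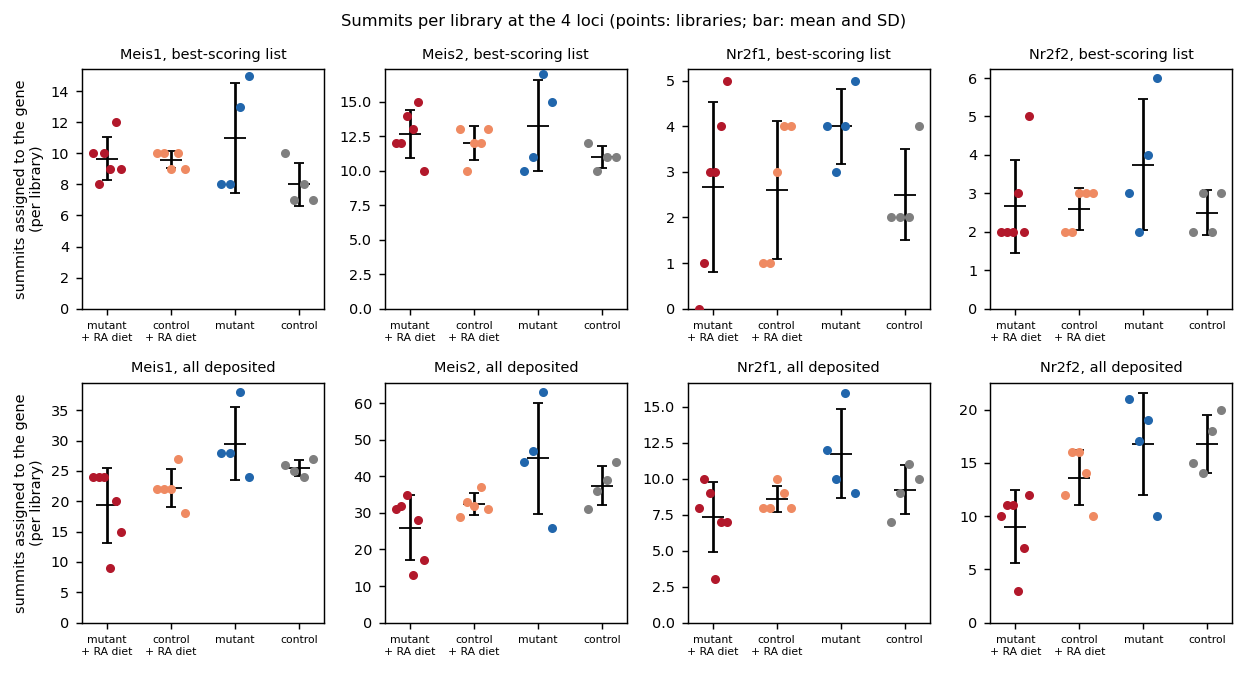
Summits assigned to each gene (vertical axis, number per library) in the 4 groups, in the equal-length lists (upper row) and in all deposited summits (lower row). Points are libraries and bars give the mean and SD. In the equal-length lists, mutants 3 and 4 have the highest Meis1, Meis2 and Nr2f2 values among the libraries off the diet.

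The Meis genes, which have the longer gene bodies, held the most summits. Meis1 had 10, 8, 10, 9, 12 and 9 matched summits in mutants on the diet, of which the median is 9.5, against 10, 10, 9, 10 and 9 in controls on the diet. It had 8, 8, 13 and 15 in mutants, against 10, 7, 8 and 7 in controls. Mutants 3 and 4 had the highest values, while mutants 1 and 2 lay within the range of the controls. Mutants against controls gave a log2 difference of 0.40 (SE 0.17, limma adjusted p = 0.793). This limma fit, like the others on summits per gene, took log2 of summits plus 0.5 for 10826 genes, and in this comparison it called 0 of them (0%) at an adjusted p under 0.05, with 617 (5.70%) at an unadjusted p under 0.05. Without mutants 3 and 4 the log2 difference for Meis1 was 0.01 (limma adjusted p = 1.0), and without mutant 1 it was 0.53. Wherever mutants 3 and 4 are left out here, only mutants 1 and 2 remain without the diet. Mutant 1 is the library with the Foxc1 WT label, so these values cannot tell an effect of mutants 3 and 4 from one of genotype.

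Meis2 had 12, 12, 14, 13, 15 and 10 matched summits in mutants on the diet, against 13, 10, 12, 12 and 13 in controls on the diet. It had 10, 11, 17 and 15 in mutants, against 12, 10, 11 and 11 in controls. The groups overlapped, and again mutants 3 and 4 were the high ones among the mutants. The log2 difference of mutants from controls was 0.23 (SE 0.15, limma adjusted p = 0.793). It was -0.06 without mutants 3 and 4, and 0.35 without mutant 1.

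Nr2f1 had 0, 1, 3, 3, 4 and 5 matched summits in mutants on the diet, against 1, 1, 3, 4 and 4 in controls on the diet. It had 4, 3, 4 and 5 in mutants, against 2, 2, 2 and 4 in controls. The values ran from none to 5 within the mutants on the diet alone. The log2 difference was 0.62 for mutants against controls (SE 0.61, limma adjusted p = 1.0) and -0.85 for mutants on the diet against mutants (SE 0.56, limma adjusted p = 0.816). The second value rested in large part on mutant 1 on the diet, the library with none, and was -0.39 without it (limma adjusted p = 1.0) and -1.08 without mutant 6 on the diet (limma adjusted p = 0.701). Nr2f2 had 2, 2, 2, 3, 2 and 5 in mutants on the diet, against 2, 2, 3, 3 and 3 in controls on the diet. It had 3, 2, 4 and 6 in mutants, against 2, 3, 2 and 3 in controls, a log2 difference of 0.44 (SE 0.29, limma adjusted p = 0.804) that was 0.00 without mutants 3 and 4. Most libraries had 2 or 3, and the highest values were those of mutants 3 and 4 and of mutant 6 on the diet.

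No member passed in any of the 5 tests on summits per gene. Mutants on the diet against mutants gave log2 differences of -0.14 for Meis1, -0.04 for Meis2 and -0.41 for Nr2f2, where 2 of 10826 genes (0.0185%) were called and 738 (6.82%) had an unadjusted p under 0.05. This comparison and that of mutants with controls share the 4 mutant libraries. Without mutants 3 and 4 its values were 0.25 for Meis1, 0.25 for Meis2, -0.68 for Nr2f1 and 0.03 for Nr2f2. Controls on the diet against controls gave 0.26, 0.12, -0.07 and 0.05 for Meis1, Meis2, Nr2f1 and Nr2f2, in a comparison with 0 called genes (0%) and 461 (4.26%) at an unadjusted p under 0.05. Mutants on the diet against controls on the diet gave 0.00, 0.07, -0.16 and -0.02 in the same order, with 3 called genes (0.0277%) and 330 (3.05%) at an unadjusted p under 0.05. The interaction of genotype and diet was -0.40, -0.16, -0.78 and -0.46, with 1 called gene (0.00924%), 378 (3.49%) at an unadjusted p under 0.05 and a limma adjusted p of 1.0 for each of the 4. Without mutants 3 and 4 the interaction was -0.01 for Meis1, 0.13 for Meis2, -0.61 for Nr2f1 and -0.02 for Nr2f2, and without mutant 1 on the diet it was -0.32 for Nr2f1.

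In all deposited summits, with lists of unequal length, each gene held more. Meis1 had a median of 22.0 in mutants on the diet (9 to 24), 22.0 in controls on the diet (18 to 27), 28.0 in mutants (24 to 38) and 25.5 in controls (24 to 27). Meis2 had medians of 29.5 in mutants on the diet (13 to 35), 32.0 in controls on the diet (29 to 37), 45.5 in mutants (26 to 63) and 37.5 in controls (31 to 44). The lowest Meis1 and Meis2 values came from mutant 4 on the diet, the library with 29112 summits. Nr2f1 ran from 3 to 10 in mutants on the diet, 8 to 10 in controls on the diet, 9 to 16 in mutants and 7 to 11 in controls. Nr2f2 ran from 3 to 12 in mutants on the diet, 10 to 16 in controls on the diet, 10 to 21 in mutants and 14 to 20 in controls. Every library had at least 3 summits at each gene once weaker peaks were counted.

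**Figure D2:**
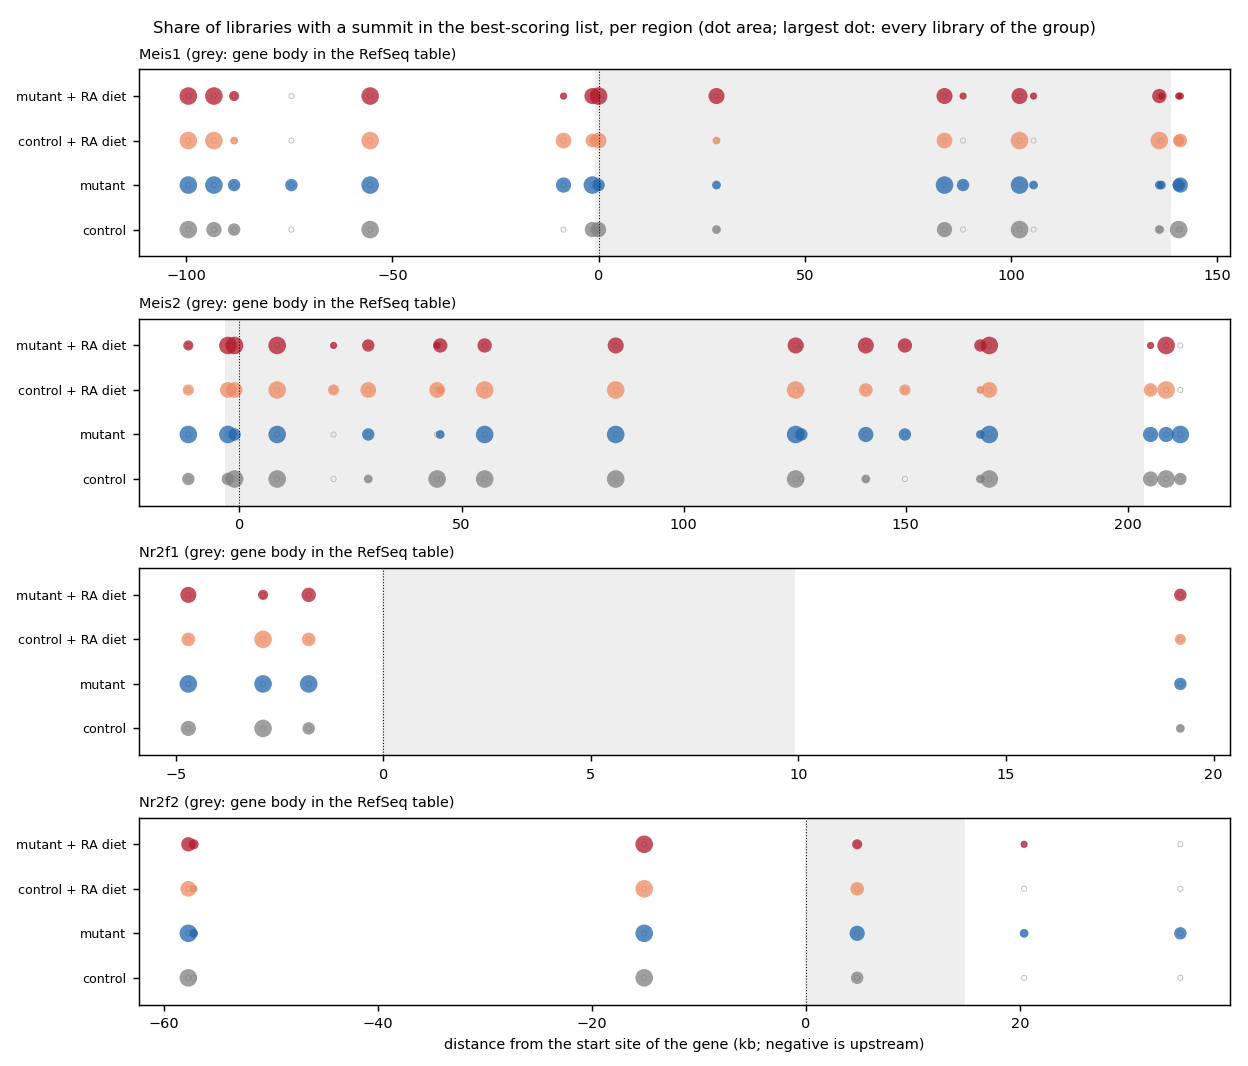
Regions along the 4 loci by distance from the start site in kb (horizontal axis; negative is upstream) for the 4 groups. Dot area gives the share of libraries of a group with a matched summit and grey the gene body. Most Meis2 regions lie inside the gene, whereas Nr2f1 has 3 regions in the 5 kb before its start site and 1 beyond its other end.

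The 46 regions were spread unevenly over the 4 loci. Meis1 had 17, of which 8 lay in the gene body, and Meis2 had 19, of which 15 lay in the gene body. Nr2f1 had 4, with none in the gene body, and Nr2f2 had 6, with 1 in the gene body. The gene bodies span 139224 bp for Meis1, 206274 bp for Meis2, 9903 bp for Nr2f1 and 14801 bp for Nr2f2. The part of gene length in these counts was not tested. The nearest neighbours of Meis1 lie 926.6 and 904.8 kb away and those of Nr2f2 1602.7 and 142.4 kb away, while Fam172a lies 22.7 kb from Nr2f1 and BC052040 lies 82.5 kb from Meis2 and takes part of the 100 kb on that side.

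A matched summit in every library was found at 4 of the 46 regions (8.70%), against 13035 of all 44878 regions (29.0%). The median region of the 4 genes had summits in 10 libraries, against 14 for all regions, and 3 of the 46 were at most 1 kb from a gene end, compared with 11770 of 44878. In all deposited summits 11 of 153 regions (7.19%) were shared by all libraries, against 12.4% of 150489. The share depended on the chaining distance: at 2000 bp, a distance chosen after the data were seen, 10 of 36 regions (27.8%) were shared, against 35.4% of all regions.

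Every library had a matched summit at or upstream of the start site of each Meis gene, but not at the same position. Meis1 had a region at its start site (chr11:19018945-19019047) and another 1.5 kb upstream (chr11:19020466-19020541). Each of the 19 libraries had a matched summit in at least 1 of them, and 11 had both. Meis2 had regions 1.1 and 2.6 kb upstream of its start site (chr2:116065711-116065788 and chr2:116067125-116067307), still inside the gene body of the table, and 13 of 19 libraries had both, while the other 6 had 1.

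The libraries with a single Meis1 summit were 1 of 6 mutants on the diet, 3 of 5 controls on the diet, 2 of 4 mutants and 2 of 4 controls. For Meis2 they were 0 of 6 mutants on the diet, 2 of 5 controls on the diet, 2 of 4 mutants and 2 of 4 controls. Libraries with 1 of the Meis1 pair had a median of 99706 deposited summits, against 77593 for those with both, and for Meis2 the medians were 99706 and 79301. The part of list length in this pattern was not tested. With 2000 bp chaining each pair became 1 region with a matched summit in every library, at ranks of 6498 to 15424 for Meis1 and 9126 to 18978 for Meis2.

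The Nr2f genes differed from this. Within 1 kb of a gene end, Nr2f1 and Nr2f2 had a matched summit in 1 library each, a mutant on the diet in both cases, against 19 libraries for Meis1 and 16 for Meis2. In every library this held for 8003 of 21887 genes (36.6%). Nr2f1 instead had 3 regions upstream, at 1.8 kb (chr13:78200462-78200674), 2.9 kb (chr13:78201692-78201769) and 4.7 kb (chr13:78203437-78203883), with matched summits in 13, 15 and 15 libraries and a deposited summit in 19, 18 and 19. At the middle one, 2 of 6 mutants on the diet had a matched summit, against 5 of 5 controls on the diet. The two-sided Fisher's exact p was 0.0606, which did not pass adjustment, and 4 of 4 mutants and 4 of 4 controls had a matched summit there. The ranks of this middle region in mutants on the diet were 29190, 43326, 43850, 22362 and 19477, with none in mutant 4 on the diet, against 22166, 26571, 26793, 20980 and 13814 in controls on the diet. Mutants without the diet had 17329, 23894, 17951 and 9608, against 21983, 15138, 22217 and 19235 in controls. Rank 1 is the best score of a library, so the highest numbers, those of mutants 2 and 3 on the diet, are the weakest peaks. Mutant 1 on the diet, at 29190, lay just outside the matched list of 29112 summits.

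**Figure D3:**
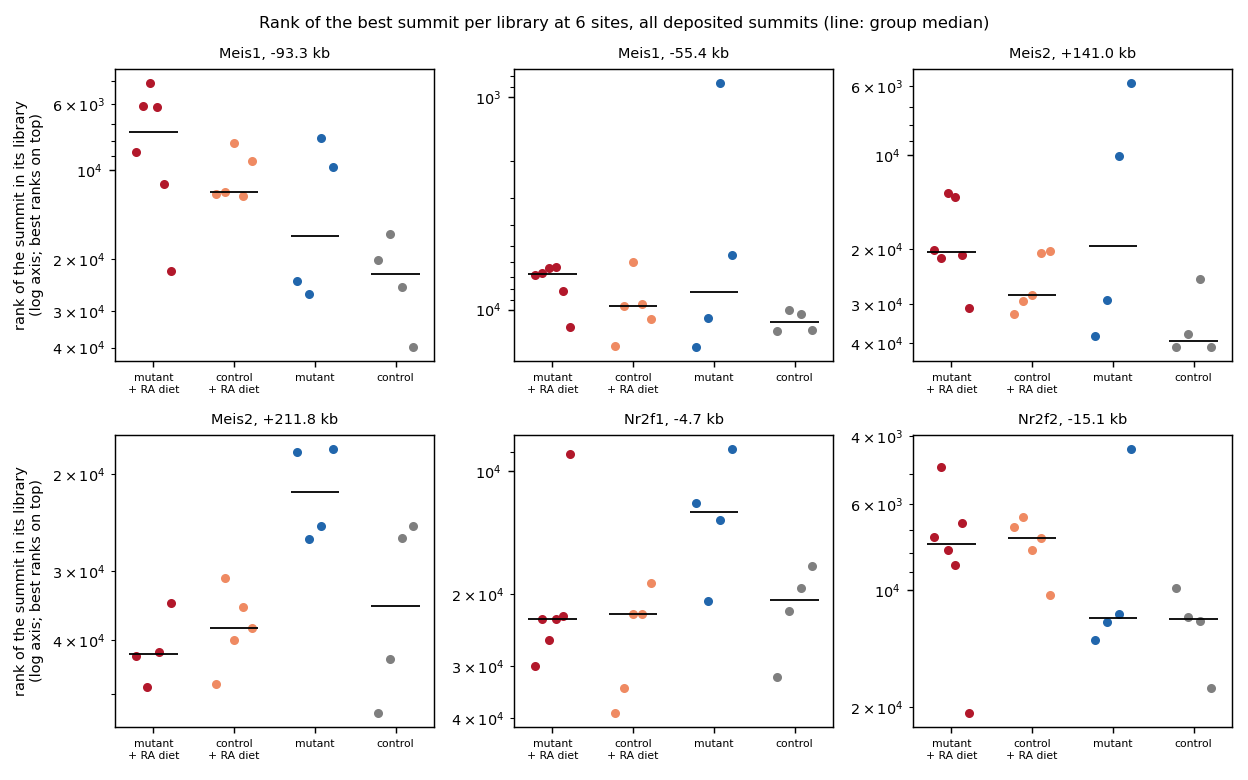
Rank of the best summit in each library at 6 sites, among all deposited summits (vertical axis, logarithmic, best ranks on top), by group; lines are group medians. At Meis1, 93.3 kb upstream, the controls on the diet (8100 to 12237) all rank better than the controls (16542 to 39900).

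Ranks were compared at sites with a summit in every library. In the equal-length lists these were 4, namely 2 at Meis1 and 1 each at Meis2 and Nr2f2, of 13035 regions. None of the 4 passed in a comparison. There, mutants against controls called 0% of regions, with 12.8% at an unadjusted p under 0.05, and controls on the diet against controls 0% and 5.89%. For mutants on the diet against mutants the shares were 0.00767% and 17.0%, for mutants on the diet against controls on the diet 0% and 1.73%, and for the interaction 0% and 4.48%. Among all deposited summits 11 sites of the 4 genes qualified, and these are described here. The test was limma on log2 ranks over 18701 such regions, signed so that a positive difference means a better rank in the group named first. No site passed at an adjusted p under 0.05. In mutants against controls 0 regions (0%) were called, with 2332 (12.5%) at an unadjusted p under 0.05. Controls on the diet against controls called 0 (0%), with 1359 (7.27%) at an unadjusted p under 0.05. Mutants on the diet against mutants called 1 (0.00535%), with 3080 (16.5%) at an unadjusted p under 0.05. Mutants against controls, both on the diet, called 0 (0%), with 422 (2.26%) at an unadjusted p under 0.05. For the interaction the counts were 0 (0%) and 800 (4.28%). At an unadjusted p under 0.05, Meis1 had 4 of the differences described next, Meis2 had 1 and Nr2f1 had 2.

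The strongest Meis1 site lay 55.4 kb upstream of the start site (chr11:19074276-19074397), with a mean matched rank of 9244. Its ranks were 6896, 6721, 6409, 6326, 8220 and 12012 in mutants on the diet, against 14897, 9660, 5989, 9445 and 11070 in controls on the diet. They were 15046, 10938, 858 and 5536 in mutants, against 12546, 10080, 10522 and 12463 in controls. Mutants 3 and 4 ranked it better than every control and mutant 1 worse. The log2 difference of mutants from controls was 1.10 (SE 0.52, limma adjusted p = 0.396). It was -0.18 without mutants 3 and 4, and 1.60 without mutant 1.

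The site 93.3 kb upstream of Meis1 (chr11:19112094-19112348) separated controls by diet. Controls on the diet had ranks of 12038, 11850, 8100, 12237 and 9302, against 20122, 16542, 24913 and 39900 in controls. The groups did not overlap, as was the case with a better rank on the diet at 3.80% of the 18701 regions. The log2 difference was 1.18 (SE 0.39, limma adjusted p = 0.572). Mutants on the diet had ranks of 8701, 6073, 5065, 6138, 11158 and 21956, against 23705, 26248, 7801 and 9746 in mutants, and these overlapped. Their log2 difference was 0.78 (SE 0.37, limma adjusted p = 0.297). It was 1.54 without mutants 3 and 4 (limma adjusted p = 0.104) and 0.50 without mutant 2 (limma adjusted p = 0.487). Another upstream site, at 99.5 kb (chr11:19118414-19118511) had a matched summit in every library, with ranks of 6244 to 16924.

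Inside Meis1, 102.1 kb after the start site (chr11:18916817-18916977), ranks were 26324, 36020, 24166, 19948, 14875 and 14444 in mutants on the diet, against 11889, 15605, 23072, 12542 and 10894 in controls on the diet. The log2 difference was -0.59 (SE 0.26, limma adjusted p = 1.00). They were 14776, 11636, 15170 and 18561 in mutants, against 8868, 14813, 15602 and 9860 in controls. The weakest ranks were those of mutants on the diet, and the groups overlapped.

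Meis2 had 3 of the tested sites, all inside the gene. The best lay 8.5 kb after the start site (chr2:116056024-116056082), matched in every library with a mean rank of 12527. Its ranks were 14126, 13969, 8150, 16575, 11590 and 16264 in mutants on the diet, against 19002, 16975, 14180, 8782 and 10949 in controls on the diet. They were 11956, 11476, 19466 and 1081 in mutants, against 15064, 13157, 6895 and 8364 in controls. All groups overlapped there, and the lowest limma adjusted p was 0.406, for mutants on the diet against mutants.

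At 141.0 kb after the Meis2 start site the ranks were 20103, 21386, 13178, 13560, 20816 and 30772 in mutants on the diet, against 32303, 29341, 28106, 20559 and 20227 in controls on the diet. They were 37768, 29006, 10018 and 5840 in mutants, against 41210, 37326, 24886 and 41032 in controls. The best ranks were again those of mutants 3 and 4. The log2 difference of mutants from controls was 1.15 (SE 0.40, limma adjusted p = 0.368). It was 0.10 without mutants 3 and 4, and 1.57 without mutant 1.

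The Nr2f1 site 4.7 kb upstream had the best mean matched rank of that gene (18680, over the 15 libraries with a matched summit there). Its ranks were 29970, 22959, 25923, 23040, 22639 and 9083 in mutants on the diet, against 39016, 33807, 22298, 22292 and 18743 in controls on the diet. They were 11991, 20820, 13169 and 8828 in mutants, against 31787, 22029, 19357 and 17031 in controls. All mutants on the diet but mutant 6 ranked it worse than every mutant without the diet. Mutants on the diet against mutants gave a log2 difference of -0.68 (SE 0.30, limma adjusted p = 0.258), and without mutants 3 and 4 it was -0.41 (limma adjusted p = 0.655). Without mutant 6 on the diet it was -0.92 (limma adjusted p = 0.0406), in a fit that called 1042 of 19594 regions (5.32%), so that a call there is not particular to this site. Mutants against controls gave 0.75 (SE 0.33, limma adjusted p = 0.382), and 0.47 without mutants 3 and 4.

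Both strong Nr2f2 sites lay upstream. The one at 15.1 kb (chr7:70381828-70382075) had ranks of 7271, 4818, 7886, 8630, 6702 and 20776 in mutants on the diet, against 6873, 6478, 7857, 7333 and 10271 in controls on the diet. It had ranks of 13478, 12085, 11499 and 4310 in mutants, against 9852, 11756, 12020 and 17893 in controls. On the diet 10 of 11 libraries ranked it between 4818 and 10271, and the other was mutant 6 on the diet. Controls on the diet against controls gave a log2 difference of 0.71 (SE 0.35, limma adjusted p = 0.694), and mutants on the diet against mutants gave 0.19 (SE 0.34, limma adjusted p = 0.826). The second value was 0.45 without mutant 6 on the diet (limma adjusted p = 0.384), 0.62 without mutants 3 and 4 (limma adjusted p = 0.460), and 0.02 to 0.57 when single libraries were left out. The site with the best mean matched rank of the whole set lay 57.7 kb upstream (chr7:70424350-70424433). That mean was 8757, over the 16 libraries with a matched summit there, and the other 3 libraries had theirs within 1 kb. Joined by 2000 bp chaining, this site had ranks of 5204 to 15511 in mutants on the diet, 6786 to 12188 in controls on the diet, 2599 to 14210 in mutants and 7811 to 12654 in controls.

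Region by region, 2 Meis2 regions had a matched summit in every library of a group and in none of another. The first lay 211.8 kb after the start site and 8.4 kb past the 3′ end of the gene (chr2:115852831-115852937). It was matched in 0 of 6 mutants on the diet and in 4 of 4 mutants (two-sided Fisher's exact p = 0.00476, adjusted p = 1.0), a pattern that 30 of 44878 regions had in this direction (0.0668%). It was matched in 0 of 5 controls on the diet and in 2 of 4 controls, which is the same direction with less separation. A weaker summit was present in most libraries, with ranks of 42687, 48630, 42054 and 34307 in 4 mutants on the diet, against 18225, 26245, 24878 and 17985 in mutants. Controls on the diet had 48126, 30922, 39998, 34802 and 38091, against 54291, 43362, 26100 and 24824 in controls. Mutants ranked the site better than every library on the diet that had a summit there, an order that follows in part from how the region was chosen, and 2 mutants on the diet, with lists of 29112 and 52848 summits, had none.

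The other lay 44.5 kb inside Meis2 (chr2:116020081-116020159) and was matched in 0 of 4 mutants and in 4 of 4 controls (two-sided Fisher's exact p = 0.0286, the smallest this design allows, adjusted p = 1.0), as were 45 of 44878 regions in that direction (0.100%). It was matched in 1 of 6 mutants on the diet and in 4 of 5 controls on the diet. Each of the 19 libraries nevertheless had a deposited summit within 1176 bp of its centre. The best summit lay within 100 bp of the centre of the region in 2 of 6 mutants on the diet, 4 of 5 controls on the diet, 1 of 4 mutants and 4 of 4 controls. In the other libraries it lay 541 to 1176 bp further towards the 3′ end of the gene, and an adjacent region 45.2 kb after the start site was matched in 4 of 6 mutants on the diet, 1 of 5 controls on the diet, 1 of 4 mutants and 0 of 4 controls. The libraries also differed in how the summit ranked, since mutant 1 on the diet and mutant 2 had theirs near the centre but at ranks of 36552 and 30394, outside the matched list. Without mutants 3 and 4 the best summit was near the centre in 1 of 2 mutants. The region was chosen because every control and no mutant without the diet was matched in it. The counts of these controls and mutants near its centre therefore follow in part from that choice.

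**Figure D4:**
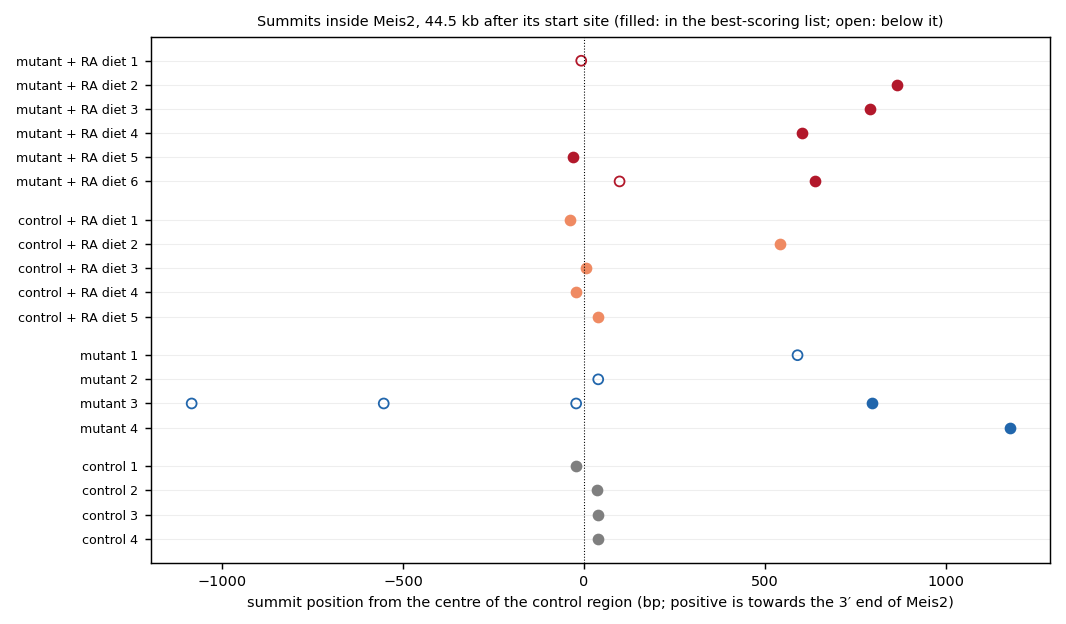
Deposited summits around the Meis2 region 44.5 kb after the start site, 1 line per library, by distance from the centre of the region in bp (horizontal axis; positive is towards the 3′ end). Filled points are matched summits and open points weaker ones. All 4 controls have a filled point near 0, while the best summits of the mutants run from 39 to 1176 bp. This contrast follows in part from how the region was chosen.

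At an unadjusted Fisher's exact p under 0.05 there were 2 further regions, both at Meis1 and both between controls on the diet and controls, where 2.62% of all regions passed that mark and 0% passed after adjustment. The share of all regions at that mark was 0.152% in mutants against controls, 1.21% in mutants on the diet against mutants and 0.305% in mutants on the diet against controls on the diet, with 0% after adjustment in each. The region 136.0 kb after the start site, near the 3′ end (chr11:18882892-18882988), was matched in 5 of 5 controls on the diet and in 1 of 4 controls (Fisher's exact p = 0.0476, adjusted p = 1.0). It was matched in 4 of 6 mutants on the diet and in 1 of 4 mutants. All 4 controls had a deposited summit there, and the ranks overlapped, at 12765 to 36082 in controls and 11786 to 28619 in controls on the diet. They were 13744 to 18414 in 4 mutants on the diet and 11589 to 53518 in 3 mutants. The region 8.5 kb upstream (chr11:19027384-19027488) was matched in 4 of 5 controls on the diet and in 0 of 4 controls (Fisher's exact p = 0.0476, adjusted p = 1.0), but in 1 of 6 mutants on the diet and in 3 of 4 mutants. Its ranks lay near the end of the matched list, at 27110 to 37328 in mutants on the diet, 20317 to 31778 in controls on the diet, 21047 to 34501 in mutants and 30893 to 38578 in controls. Whether the diet acts differently in the 2 genotypes there was not tested.

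The genes most like each member were sought among 6987 to 7255 genes on other chromosomes. This was done by Spearman correlation of matched summits over the 19 libraries, as a description. How high the best of so many values would be by chance was not tested. For Meis1 they were Dmrta1 (rho 0.838), Lekr1 (0.834) and Lrp2 (0.813), and for Meis2 they were Ahcyl2 (0.870), Lrig1 (0.841) and Ankrd44 (0.836). Nr2f1 was closest to Commd3 (0.779), Nr2f2 (0.757) and Psme4 (0.756), and Nr2f2 to Psme4 (0.809), Satb1 (0.760) and Nr2f1 (0.757). Meis1 and Meis2 had a rho of 0.701 with each other, whereas either Meis gene had 0.0284 to 0.198 with the Nr2f genes. All these values share the same libraries, including mutants 3 and 4, and the ranges are narrow, with 0 to 5 summits for Nr2f1 and 2 to 6 for Nr2f2.

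Related genes were taken from 4 lists, of TALE homeobox partners, Nr2 relatives, the retinoic acid pathway, and forebrain arealisation and ventral identity. Of 9 TALE homeobox partners 7 could be tested, and 0 were called in any of the 5 tests. Of 10 relatives of the Nr2 receptors 5 were tested and 0 called. Rxra, a retinoid X receptor and a partner of retinoic acid receptors, had 1 to 5 matched summits in mutants and 3 to 6 in controls, a log2 difference of -0.83 (limma adjusted p = 0.793).

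Of 21 retinoic acid pathway genes 15 were tested and 0 called. Stra6, the membrane receptor for retinol bound to its carrier, had 1 to 4 matched summits in mutants and 3 to 4 in controls, a log2 difference of -0.79 (limma adjusted p = 0.776). Of 20 genes of forebrain arealisation and ventral identity 17 were tested and 0 called. For mutants on the diet against mutants the median log2 difference was -0.27 for the 4 members, 0.00 for the TALE partners, 0.02 for the Nr2 relatives, -0.06 for the retinoic acid genes and -0.04 for the arealisation genes, against 0.00 for all genes tested. Without mutants 3 and 4 the medians were 0.14 for the 4 members, 0.00 for the TALE partners, 0.06 for the Nr2 relatives, -0.08 for the retinoic acid genes and 0.12 for the arealisation genes, against 0.00 for all genes tested, so the sign for the members turned.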

How the data were processed

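ATAC-seq was carried out on 19 libraries in 4 groups, taken from the sample titles. Per the submitters' processing notes, BWA, MACS2, Signac and DiffBind and the builds mm10 and GRCm38 were used; versions and settings are not given in the sources used here. The deposited files list the summits of 1 library each. The score deposited by the authors for a summit is a −log10 q value from MACS2, made within that library with no scaling between libraries. Read counts were not used here, so depth is unknown and no interval that needs it was computed.

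From the 29112 best-scoring summits of each library, the length of the shortest list, summits were assigned to the nearest end, within 100 kb, of 21887 protein-coding genes in a RefSeq table of GRCm38.p6, and chained into regions at 200 bp. Matched list length does not equalise sensitivity. Log2 of summits per gene plus 0.5, for genes whose mean over the libraries reached 1, and log2 ranks at regions shared by every library were fitted with limma 3.58.1 (trend, robust) in R 4.3.3, with 1 coefficient per group. Presence per region was compared with two-sided Fisher's exact tests (scipy 1.17.1). Adjustment was by Benjamini-Hochberg over all genes or regions, with a threshold of 0.05. The fits were tested on simulated data.

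All 4 genes were named in each comparison. Regions were named when they were separated between groups or had the smallest p of a gene in a comparison. They were also named for the best mean rank of a gene, taken over the libraries with a matched summit. Of the gene lists, only some of the genes with the smallest p in a comparison are reported here. The genes and lists were chosen with earlier results of these data known. Alternatives were all deposited summits, 14556 summits per library, windows of 10 and 500 kb, chaining at 100 and 500 bp, a pseudocount of 1, no filter, no robust step, a replicate block and leaving out each library; added after seeing the data were chaining at 2000 bp, scaling by list length and leaving out mutants 3 and 4. Promoter windows come from RefSeq, GRCm38.p6, and were found for 4 of 4 genes.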

Additional observations from a re-analysis of the deposited data

Results flagged for a closer look

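Each value was compared with the others of its group, for 76 groups of 4 to 6 libraries, and 6 values stood apart; chance marks about 1 in 20 groups. Of these 6, 5 came from mutant 6 on the diet. At the Nr2f1 site 4.7 kb upstream its rank was 9083, against 22639 to 29970 in the other mutants on the diet, a better rank. At the Nr2f2 site 15.1 kb upstream its rank was 20776, against 4818 to 8630, a worse one. At the Meis1 sites 93.3 and 55.4 kb upstream its ranks were 21956 and 12012, against 5065 to 11158 and 6326 to 8220. It also had 5 matched summits at Nr2f2, against 2 to 3 in the other mutants on the diet. Mutant 6 on the diet had 48323 deposited summits, a share of 36.2% within 1 kb of a gene end, which was the highest of the 19 libraries, and a mean correlation of 0.769 with the others; their part in these values was not tested. The remaining value was control 4, with 4 matched summits at Nr2f1, against 2 in each of the other 3 controls.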

How the results depend on the processing

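No member passed an adjusted p under 0.05 for summits per gene under any alternative run. The number of genes called was small throughout. In mutants against controls it was 0, and 1 without mutants 3 and 4. In controls on the diet against controls it was 0, and 2 with all deposited summits, with 14556 summits or without the robust step, 1 with a 10 kb window and 3 without a filter. For mutants on the diet against mutants it was 2, and 0 with all deposited summits, scaled or not, 1 with 14556 summits, a 500 kb window, a pseudocount of 1 or without mutants 3 and 4, and 5 with a 10 kb window. In mutants against controls, both on the diet, it was 3, and for the interaction 1; both fell to 0 with all deposited summits, scaled or not, and with 14556 summits, and the interaction also without mutants 3 and 4. Leaving out 1 library gave 0 to 2, 0 to 2, 1 to 7, 1 to 4 and 0 to 2 genes in these 5 tests. For ranks in the equal-length lists, leaving out 1 library gave 0 to 338 regions in mutants against controls and 0 to 796 in mutants on the diet against mutants, the highest without mutant 2 and without mutant 6 on the diet; the second count was 1 as reported and 0 with 14556 summits or 100 bp chaining. Region presence called 0 regions in every alternative. With all libraries the smallest Fisher's exact p that the group sizes allow was 0.002165 to 0.02857, depending on the comparison. Over 44878 regions a call would need a very large number of regions at that p, so these counts say little about stability.

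The labels do not say whether the replicate numbers pair the libraries, and the correlations showed no clear pairing. Same-numbered libraries had a mean correlation of deviations of 0.0133 for summits per gene, over 0.1 in 2 of 25 pairs, and of 0.0484 for ranks, over 0.1 in 8 of 25. For differently numbered libraries the means were -0.0029, over 0.1 in 10 of 109 pairs, and -0.0078, over 0.1 in 28 of 109. With a replicate block, the counts for summits per gene were 0 in every comparison, and the ranks gave 831 regions in mutants on the diet against mutants and 1 in controls on the diet against controls. For mutants on the diet against mutants, the rank of the Nr2f1 site 4.7 kb upstream gave -1.0 on the log2 scale with the block (limma adjusted p = 0.0214), in a fit that called 1012 of 18701 regions.

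Log2 differences of the members that changed sign were far from the threshold. Mutants against controls gave -0.06 for Meis2 without mutants 3 and 4, -0.04 for Nr2f2 with all deposited summits, and -0.18 for the rank of the Meis1 site 55.4 kb upstream without mutants 3 and 4. Controls on the diet against controls gave -0.21, -0.20 and -0.30 for Meis1, Meis2 and Nr2f2 with all deposited summits, -0.48 and -0.27 for Meis2 with 14556 summits and a 10 kb window, and 0.15 and 0.21 for Nr2f1 with a 500 kb window and scaled lists. Mutants on the diet against mutants gave 0.40 for Meis1 with 14556 summits, 0.08 for Meis2 with a 500 kb window, and 0.25, 0.25 and 0.03 for Meis1, Meis2 and Nr2f2 without mutants 3 and 4. Mutants against controls, both on the diet, gave -0.26 and -0.32 for Meis1 with all deposited summits and a 10 kb window, -0.39 and -0.05 for Meis2 with all deposited summits and scaled lists, and 0.01 and 0.04 for Nr2f1 with a 500 kb window and scaled lists. The interaction gave 0.06 and 0.10 for Meis1 and Meis2 with 14556 summits and 0.13 for Meis2 without mutants 3 and 4. Leaving out 1 library moved the sign within -0.25 to 0.15 for Nr2f1 and -0.03 to 0.13 for Nr2f2 in controls on the diet against controls. In mutants on the diet against mutants it did so within -0.26 to 0.03 for Meis1 and -0.16 to 0.08 for Meis2. In mutants against controls, both on the diet, the ranges were -0.06 to 0.05 for Meis1, -0.39 to 0.30 for Nr2f1 and -0.19 to 0.03 for Nr2f2. The cause of these changes was not tested. Peak height and width were not used here, so a summit that is missing may be a weaker or merged peak.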

Other observations

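Farther sites added summits mainly at the Nr2f genes and Meis1. Counting matched summits whose nearest gene end lay within 500 kb, Nr2f1 had 7 to 12 in mutants on the diet, 6 to 12 in controls on the diet, 9 to 15 in mutants and 7 to 10 in controls. Nr2f2 had 7 to 11 in mutants on the diet, 8 to 10 in controls on the diet, 8 to 11 in mutants and 8 to 9 in controls. Meis1 had 15 to 20 in mutants on the diet, 14 to 18 in controls on the diet, 14 to 21 in mutants and 13 to 18 in controls. Meis2 had 10 to 17 in mutants on the diet, 10 to 14 in controls on the diet, 10 to 20 in mutants and 10 to 12 in controls.

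Among the 14556 best-scoring summits of each library, Nr2f1 had 0 to 1 in mutants on the diet, 0 to 1 in controls on the diet, 0 to 2 in mutants and 0 in each control. Nr2f2, with its sites 15.1 and 57.7 kb upstream, had 1 to 2 in mutants on the diet, 2 in each control on the diet, 2 in each mutant and 1 to 2 in controls.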
